A study of Mus musculus with 17 samples.

Results

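The CD40 and NF-kB response genes described here were 10 genes named by symbol, of 21848 genes in the matrices: Cd40, Traf1, Nfkbia, Tnfaip3, Nfkb1, Nfkb2, Rel, Relb, Icam1 and Bcl2a1b. All 10 were found in every matrix and passed the filter on low counts. They were measured by 5′ droplet-based single-cell RNA sequencing of mouse germinal centre (GC) B cells, in which each mouse was marked by hashtag antibodies before pooling. A time course followed GC B cells before and after anti-DEC-OVA, an antibody to the endocytic receptor DEC-205 (gene Ly75) fused to ovalbumin (OVA), which loads the cells with antigen for presentation to T cells. A second experiment split GC B cells of treated mice by a fluorescent reporter of CDK2, the kinase that drives entry into and passage through S phase. All values below are per mouse, over UMIs (unique molecular identifiers) summed across its cells.

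CD40 is a receptor on B cells that is bound by CD40 ligand on T follicular helper cells, and its signal is one of the main forms of T cell help in the GC light zone (LZ). Through TRAF adaptors it activates NF-kB, a family of transcription factors held in the cytoplasm by inhibitors such as the product of Nfkbia. Several genes of the pathway are themselves NF-kB targets, among them its inhibitors Nfkbia and Tnfaip3, so that their transcripts are often read as a trace of recent signalling.

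The time course used mice in which GCs were formed after immunization with NP-OVA in the footpad of CD45.1 recipients that had been primed with OVA and had received B1-8hi B cells, which carry a knock-in heavy chain specific for NP. A part of the transferred cells had DEC-205 and the rest were Ly75-/-. The study describes the time-course cells as DEC-205+, whereas the labels name only live GC B cells, and whether cells without DEC-205 remained was not tested. The B1-8hi pairing of heavy and light chain was found in a median of 62.1% to 70.8% of cells per mouse in the groups of the time course. The groups were Day7 (0 h, 9 mice, before treatment), Day9 (48 h, 6 mice, untreated), Day9DEC (48 h after anti-DEC-OVA, 9 mice), Day10 (72 h, 8 mice, untreated) and Day10DEC (72 h after anti-DEC-OVA, 7 mice), with treatment at day 7. Each group was split over a larger experiment (between 4 and 6 mice per group) and a smaller one (2 or 3). The CDK2 experiment used GC B cells with a DHB-tdTomato fusion in Rosa26, some also with H2B-GFP, taken 72 h after anti-DEC-OVA and sorted on images into C (reporter in the cytoplasm, CDK2-high) and N (reporter in the nucleus, CDK2-low) from the same 7 mice. DHB-tdTomato came from a single founder backcrossed for at least 5 generations. Mice were of both sexes and between 5 and 12 weeks old.

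Of the promoters of the 10 genes, taken as the 300 bases before the start of the canonical transcript in GRCm39, 6 held a match to the kappaB consensus, the sequence bound by NF-kB, on either strand (60%). Among the promoters of 21757 protein-coding genes 1086 did (4.99%). Those of Cd40 (chr2:164897244-164897543, plus strand), Nfkbia (chr12:55539433-55539732, minus strand), Tnfaip3 (chr10:18891187-18891486, minus strand) and Relb (chr7:19363424-19363723, minus strand) are shown as the promoters with a match of the receptor, both inhibitors and a non-canonical subunit. That of Nfkb2, whose differences below were as large, held no match and is not printed. They are written 5′ to 3′ on the strand of the gene, and capitals mark the matches.
Cd40: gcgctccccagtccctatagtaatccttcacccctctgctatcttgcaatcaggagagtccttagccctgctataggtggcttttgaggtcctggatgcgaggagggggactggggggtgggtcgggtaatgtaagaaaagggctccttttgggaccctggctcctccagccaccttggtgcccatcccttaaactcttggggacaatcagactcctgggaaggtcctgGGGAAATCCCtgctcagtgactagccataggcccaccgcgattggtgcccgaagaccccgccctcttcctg
Nfkbia: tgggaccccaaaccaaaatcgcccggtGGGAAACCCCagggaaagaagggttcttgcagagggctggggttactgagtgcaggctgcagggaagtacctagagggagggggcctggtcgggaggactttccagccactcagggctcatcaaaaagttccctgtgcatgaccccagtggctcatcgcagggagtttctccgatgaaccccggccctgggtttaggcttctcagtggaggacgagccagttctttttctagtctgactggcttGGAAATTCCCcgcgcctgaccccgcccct
Tnfaip3: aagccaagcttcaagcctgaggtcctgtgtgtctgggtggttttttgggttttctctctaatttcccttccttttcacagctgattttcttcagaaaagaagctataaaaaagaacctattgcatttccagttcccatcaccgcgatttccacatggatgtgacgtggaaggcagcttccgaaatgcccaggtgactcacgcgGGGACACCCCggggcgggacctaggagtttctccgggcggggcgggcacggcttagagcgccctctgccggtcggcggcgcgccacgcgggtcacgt
Relb: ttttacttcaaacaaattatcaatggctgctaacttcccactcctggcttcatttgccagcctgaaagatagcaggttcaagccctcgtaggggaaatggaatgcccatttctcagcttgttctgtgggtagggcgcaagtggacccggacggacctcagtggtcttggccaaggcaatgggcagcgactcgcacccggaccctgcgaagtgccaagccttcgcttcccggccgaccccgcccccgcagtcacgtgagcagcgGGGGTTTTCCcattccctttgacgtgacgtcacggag
The match began 71 bases before the start in Cd40, 97 in Tnfaip3 and 37 in Relb, and Nfkbia held one at 273 and one at 29 bases. Rel and Icam1 held 1 match each, at 276 and 243 bases. A match describes letters and was not tested as a site, and nothing follows from its absence in the windows of Traf1, Nfkb1, Nfkb2 and Bcl2a1b.

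In the time course 23698 cells were kept, between 292 and 1045 per mouse, with 1984426 to 13373185 UMIs per mouse. The CDK2 sort gave 11833 cells, 278 to 1679 per mouse and population, with 3988733 to 20394909 UMIs. Cd40 rested on between 2075 and 3989 UMIs per group of the time course, and Tnfaip3, among the least counted of the 10 genes, on between 548 and 1047. The pools shared between 5 and 43 kept cell barcodes. All 7 markers of GC B cells were found, and their summed level had a median between 3681 and 5095 CPM (counts per 1000000 UMIs, with library sizes scaled by TMM) in every group. T cell markers (5 of 6 in the matrices) had medians of 0.617 to 6.35 CPM, with a highest value of 43.2 CPM in 1 N sample. Plasma cell, myeloid and naive or memory B cell markers were found in full, with highest sums of 2375, 287 and 194 CPM. The plasma cell sum was mostly Jchain (at most 2212 CPM). The myeloid sum was mostly Cst3 (medians of 161 to 245 CPM), with group medians of at most 7.26 CPM for Lyz2 and 0.128 CPM for Csf1r. In the GC B cell sum Cd79a and Ms4a1 were the largest parts, with medians of 1942 and 1618 CPM in Day7, where Bcl6 had 289 CPM.

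Cd40 (ENSMUSG00000017652) encodes the receptor. In untreated mice its lowest, median and highest levels were 43.0, 61.9 and 78.4 CPM at 0 h, 68.8, 71.8 and 76.0 CPM at 48 h, and 66.9, 76.1 and 86.4 CPM at 72 h. After anti-DEC-OVA they were 38.9, 48.7 and 56.8 CPM at 48 h and 54.7, 65.6 and 82.2 CPM at 72 h. Every treated mouse at 48 h was below every untreated mouse at 48 h, whereas the groups overlapped at 72 h. By the medians the order was treated 48 h, 0 h, treated 72 h, untreated 48 h and untreated 72 h, with overlapping ranges between each pair of neighbours. At 48 h Cd40 fell by 0.62 on the log2 scale (SE 0.07, adjusted p = 9.16e-09), a level 34.7% lower by the model, in edgeR's quasi-likelihood test over all genes. CPM is a share of UMIs, so this is a fall of the share, and Cd40 UMIs per cell, given below, were not lower.

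Traf1 (ENSMUSG00000026875), an adaptor of the CD40 complex, was the member that did not pass the test at 48 h. Its levels were 60.9, 78.5 and 95.1 CPM (lowest, median and highest) in untreated mice and 56.8, 74.8 and 92.4 CPM in treated mice. The groups overlapped almost entirely, and the log2 difference was -0.08 (95% interval -0.21 to 0.04, adjusted p = 0.295).

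Both inhibitors were lower at 48 h. Nfkbia (ENSMUSG00000021025), which encodes IkBa, the protein that retains NF-kB in the cytoplasm, had 116.7, 173.8 and 192 CPM in untreated and 67.3, 112.6 and 124 CPM in treated mice. Tnfaip3 (ENSMUSG00000019850), which encodes the ubiquitin-editing enzyme A20, had 16.1, 21.2 and 27.6 CPM in untreated and 9.60, 12.2 and 16.7 CPM in treated mice. For Nfkbia the ranges overlapped only across the experiments, since in the larger experiment untreated mice had 170 to 192 CPM and treated mice 109 to 124 CPM, and in the smaller 116.7 to 144.8 CPM and 67.3 to 75.9 CPM. For Tnfaip3 the highest treated mouse was just above the lowest untreated mouse of the larger experiment. Nfkbia fell by 0.72 (SE 0.07, adjusted p = 7.89e-10) and Tnfaip3 by 0.77 (SE 0.11, adjusted p = 1.5e-07) on the log2 scale.

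The 4 NF-kB subunits among the 10 genes were lower as well, and for each of the 4 the groups did not overlap at 48 h. Rela, another subunit, is not among them and is counted in the longer list below. Nfkb1 (ENSMUSG00000028163), a subunit of the canonical pathway, had 119.8, 124.9 and 142.9 CPM in untreated and 90.2, 99.9 and 104.6 CPM in treated mice. Rel (ENSMUSG00000020275), which encodes c-Rel, had 208, 226 and 240.3 CPM against 154, 169 and 188 CPM. They fell by 0.36 (SE 0.05, adjusted p = 4.12e-08) and 0.41 (SE 0.05, adjusted p = 7.26e-08) on the log2 scale.

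Nfkb2 (ENSMUSG00000025225) and Relb (ENSMUSG00000002983) encode the partners of the non-canonical pathway, which CD40 also engages. Nfkb2 had 31.6, 38.6 and 43.4 CPM in untreated and 18.8, 23.2 and 26.4 CPM in treated mice at 48 h. Relb had 31.5, 39.9 and 45.1 CPM against 18.7, 25.7 and 29.8 CPM. Nfkb2 fell by 0.71 (SE 0.09, adjusted p = 1.96e-08) and Relb by 0.67 (SE 0.07, adjusted p = 5.34e-10), larger falls than those of Nfkb1 and Rel, although differences between genes were not tested.

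Among the targets, Icam1 (ENSMUSG00000037405), an adhesion molecule that binds LFA-1 on T cells, had 53.4, 58.2 and 65.4 CPM in untreated and 39.3, 45.9 and 49.2 CPM in treated mice, with no overlap. Bcl2a1b (ENSMUSG00000089929), an anti-apoptotic gene of the BCL2 family, had 25.5, 29.5 and 34.9 CPM against 19.0, 23.8 and 27.6 CPM, with overlap. Icam1 fell by 0.38 (SE 0.08, adjusted p = 6.61e-05) and Bcl2a1b by 0.32 (SE 0.09, adjusted p = 0.00314) on the log2 scale. Values of Bcl2a1b are uncertain because its transcript shares 98.2% of the shorter sequence with Bcl2a1a and 98.3% with Bcl2a1d, so that reads could be split among the copies.

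**Figure D1:**
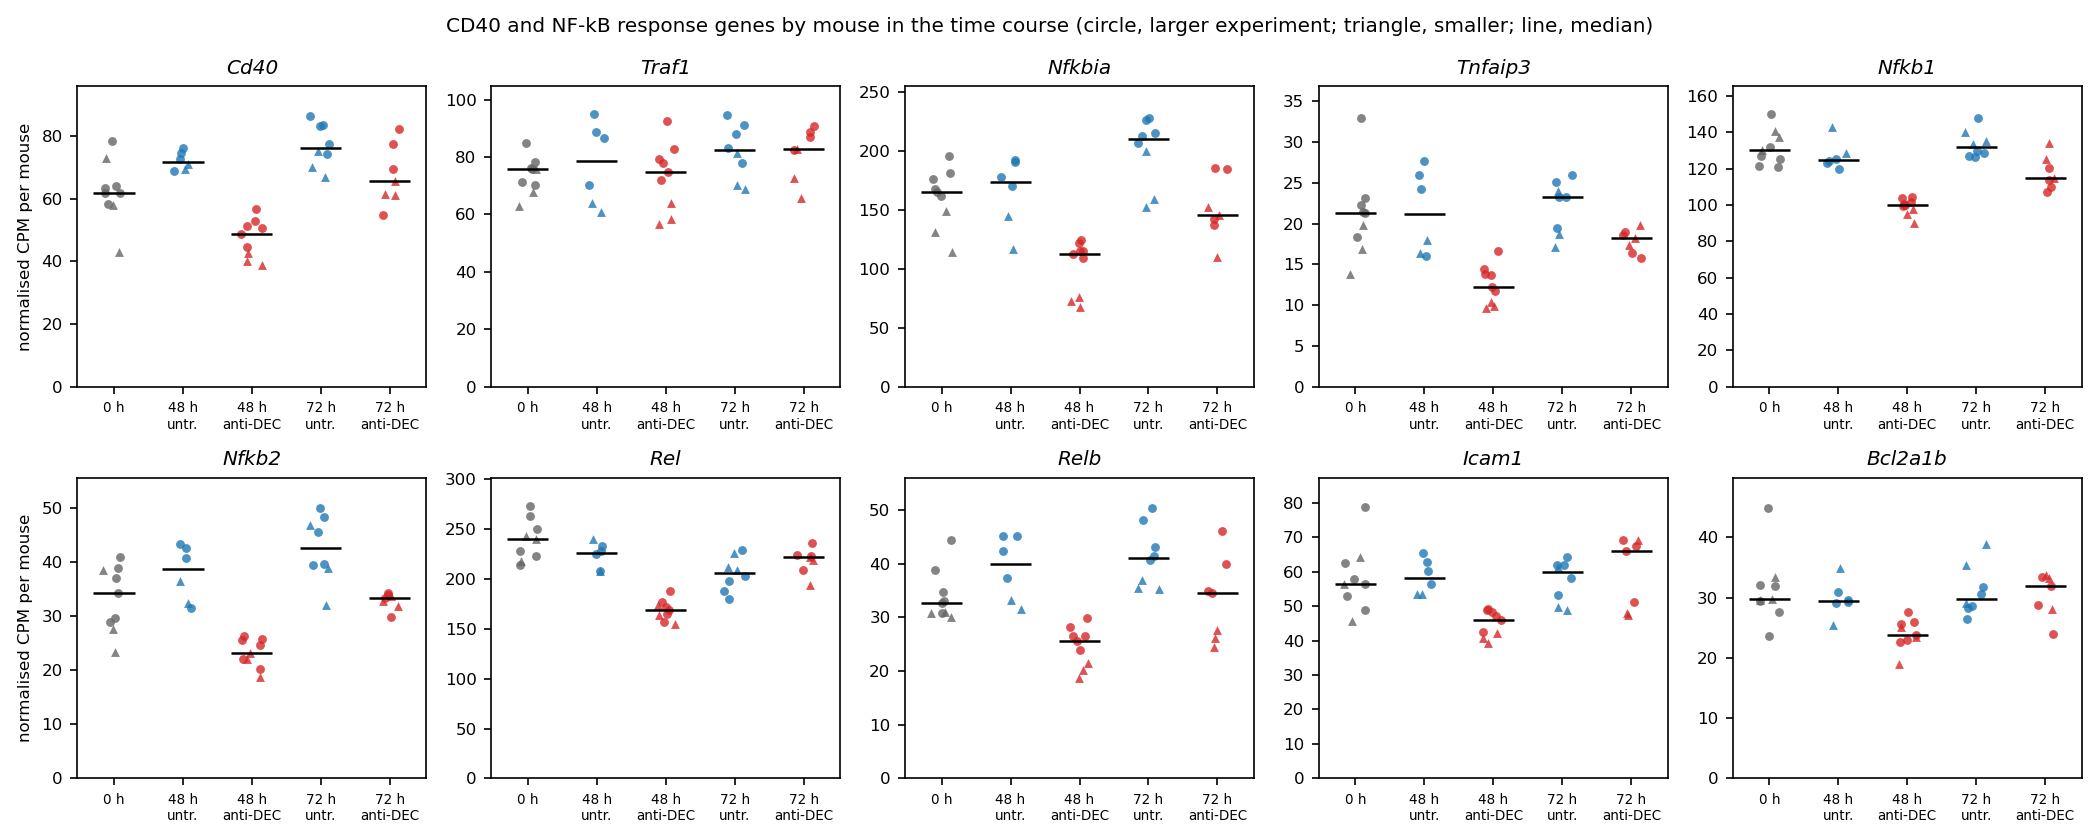
Normalised CPM (y axis) of each gene in every mouse (points) of the 5 groups (x axis), with circles for the larger and triangles for the smaller experiment and a line at the group's median. The treated mice at 48 h are the lowest group by the median in all 10 genes, from 48.7 CPM for Cd40 against 71.8 CPM in untreated mice to nearly level medians for Traf1 (74.8 and 78.5 CPM).

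Thus 9 of the 10 genes were lower at 48 h, where 21.1% of all 10220 genes tested were called lower and 26.3% higher. Their median log2 fold change was -0.51, against 0.01 over all genes. For 6 of the 10 (Cd40, Nfkb1, Nfkb2, Rel, Relb and Icam1) every treated mouse was below every untreated one, a separation found in 3.25% of all genes. Within each experiment 8 of the 10 were separated in this way (also Nfkbia and Bcl2a1b), as were 8.84% of all genes. With total UMIs as the scale in place of TMM, all 10 were called lower, Traf1 by -0.16 (adjusted p = 0.0472), where 30.1% of all genes were lower and 18.5% higher. In each experiment alone 9 of the 10 were again called lower (19.7% of genes in the larger, 10.1% in the smaller), and Cd40 differed by -0.56 in the larger and -0.82 in the smaller.

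At 72 h the differences between treated and untreated mice were smaller. Nfkbia had 152, 209.7 and 228 CPM (lowest, median and highest) in untreated and 110.2, 146 and 186 CPM in treated mice and fell by 0.40 on the log2 scale (SE 0.08, adjusted p = 0.000531). Nfkb2 had 32.1, 42.6 and 50.0 CPM against 29.9, 33.3 and 34.4 CPM and fell by 0.37 (SE 0.09, adjusted p = 0.00622). Relb fell by 0.29 (SE 0.07, adjusted p = 0.00797) and Nfkb1 by 0.19 (SE 0.05, adjusted p = 0.00616). All 4 overlapped between the groups.

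The other 6 genes did not pass the test at 72 h. Cd40 differed by -0.19 (95% interval -0.34 to -0.05, adjusted p = 0.108) and Tnfaip3 by -0.31 (interval -0.53 to -0.09, adjusted p = 0.0743). Rel and Icam1 had values of 0.08 and 0.05, and Traf1 and Bcl2a1b of -0.01 and -0.07. Thus 4 of 10 were called lower, with 3.88% of all genes lower and 4.67% higher, and the median of the 10 was -0.19 against -0.00442 over all genes. In the larger experiment alone 3 were called lower (3.55% of genes) and in the smaller alone 1 (0.116%).

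The treated mice at 48 h were next compared with those at 72 h, and both groups also enter the comparisons above. UMIs per cell of the 10 genes, given below, were higher at 48 h. As shares of UMIs all 10 genes were lower at 48 h, where 22.3% of all genes were lower and 26.8% higher. With total UMIs as the scale all 10 were lower as well, where 34.4% of genes were lower and 17.9% higher. Nfkbia differed most, by -0.62 (SE 0.07, adjusted p = 7.91e-09), then Tnfaip3 by -0.53 (SE 0.11, adjusted p = 8.71e-05), Cd40 by -0.52 (SE 0.07, adjusted p = 1.09e-07) and Nfkb2 by -0.51 (SE 0.09, adjusted p = 7.28e-06). Traf1 had the smallest value, -0.18 (SE 0.06, adjusted p = 0.0174). Nfkb1, Nfkb2 and Rel did not overlap between these groups, as was the case for 2.28% of all genes. The larger experiment alone gave 9 lower calls (21.3% of genes) and the smaller 10 (12.3%).

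The treatment effect at 48 h minus that at 72 h tested whether the time points differed. It was below 0 for 8 of the 10 genes past the threshold (13.0% of all genes were called lower and 18.5% higher). With total UMIs as the scale 8 of 10 passed as well, with 20.4% of genes lower and 12.3% higher. Rel had the largest value, -0.49 (SE 0.08, adjusted p = 1.13e-05), followed by Tnfaip3 with -0.46 (SE 0.15, adjusted p = 0.019), Icam1 with -0.44 (SE 0.11, adjusted p = 0.00231) and Cd40 with -0.42 (SE 0.10, adjusted p = 0.00164). Traf1 (-0.08, adjusted p = 0.574) and Bcl2a1b (-0.25, adjusted p = 0.149) did not pass. With each experiment alone the calls fell to 4 (11.3% of genes lower) and 3 (3.27%), although all 10 values stayed below 0 in both.

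Without treatment the receptor and part of the family rose between day 7 and day 10. Cd40 was higher by 0.30 (SE 0.07, adjusted p = 0.00515), Nfkbia by 0.35 (SE 0.07, adjusted p = 0.00167), Nfkb2 by 0.35 (SE 0.08, adjusted p = 0.00768) and Relb by 0.32 (SE 0.07, adjusted p = 0.00212). Rel went the other way, from a median of 240.2 CPM at 0 h to 206 CPM at 72 h, and fell by 0.21 (SE 0.05, adjusted p = 0.0091). These were 4 genes higher and 1 lower, where 1.79% of all genes were higher and 2.62% lower. All ranges overlapped. Without a term for the experiment the 4 higher calls were lost, with Cd40 at 0.30 (adjusted p = 0.0963), Nfkbia at 0.32 (0.341), Nfkb2 at 0.35 (0.0705) and Relb at 0.29 (0.32), where 0.460% of genes were higher, and Rel stayed lower (adjusted p = 0.0482). The calls rested on the larger experiment, which alone gave 4 higher and 1 lower (2.17% and 1.52% of genes). In the smaller experiment alone edgeR called 0 of the 10 at an adjusted p under 0.05, where 3 of all 10334 genes were called higher (0.0290%) and 0 lower (0.00%), and 3 of the 10 at an unadjusted p under 0.05, with Cd40 at 0.23.

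Cell cycle phase and zone score also differed between treated and untreated mice at 48 h, and had nearly level medians at 72 h. Cells in G1 made up a median of 21.8% (range 16.4 to 24.6) of cells per mouse in treated mice at 48 h and 53.5% (44.8 to 57.1) in untreated mice, and 49.9% and 49.7% in treated and untreated mice at 72 h. Cells with a higher LZ than dark zone (DZ) score, by lists that hold none of the 10 genes, made up 25.9% and 53.2% at 48 h. At 72 h they made up 47.6% in treated and 47.6% in untreated mice. The median over cells of the UMIs per cell was, by the median mouse, 13704 in treated and 6666.5 in untreated mice at 48 h. After each cell was thinned to 2871 UMIs, leaving out 281 treated and 532 untreated cells, the shares in G1 were 21.6% and 50.3% and those of LZ-scored cells 44.2% and 65.5%. Naive or memory B cell markers (6 of 6 found) summed to 30.2 to 65.7 CPM in treated and 51.6 to 123 CPM in untreated mice at 48 h, T cell markers to 0.398 to 4.43 CPM (Cd3e at 0 in 3 of 9 mice) and 5.30 to 10.7 CPM, and plasma cell markers to 1204 to 2028 and 733 to 1488 CPM. The last sum was mostly Jchain (medians of 1337 and 945 CPM in treated and untreated mice), whereas Xbp1 had 161 and 169 CPM and Prdm1, a plasma cell regulator, was at 0.995 to 6.62 and 0 to 10.4 CPM, with the lower median in treated mice. Sdc1 and Tnfrsf17, also on the list, had higher medians in treated mice, 1.60 and 0.927 CPM against 1.56 and 0.172 CPM. At 72 h the sums of naive or memory markers were 29.9 to 51.9 and 39.7 to 124 CPM. The part of the marker levels in the differences was not tested. That of phase and zone was not tested as a cause, and the same comparisons were made within classes of cells.

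All 10 genes were higher in LZ-scored than in DZ-scored cells of the same mouse, a description only, since both classes come from other genes of the same cells. These levels within a mouse are per total UMIs of the class, without TMM. Cd40 had median levels of 103 and 43.4 CPM in the classes and was higher in LZ-scored cells of 39 of 39 mice, with a median log2 ratio of 1.26. Nfkbia had 256 and 103 CPM, in 39 of 39 mice, and a ratio of 1.30, and Relb 53.7 and 25.1 CPM with 1.16. Traf1 and Nfkb1 had the lowest ratios (0.61 and 0.63). Of all 10220 genes 5.54% were higher in LZ-scored cells in every mouse, and 7 of the 10 were, with Nfkb2 and Bcl2a1b higher in 38 and Tnfaip3 in 37. Levels in G1 cells exceeded those in S cells in between 34 and 39 mice, depending on the gene. This is a description only, and the share of all genes higher in G1 cells was not counted.

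Within G1 cells at 48 h, 2 of the 10 genes were called lower, Rel by -0.28 (adjusted p = 0.00669) and Relb by -0.43 (adjusted p = 0.00784), where 4.78% of genes were. Cd40 had -0.28 (adjusted p = 0.0663) and Nfkb2 -0.43 (adjusted p = 0.0759) there, and Nfkbia and Tnfaip3 -0.10 and -0.04. Within LZ-scored cells 5 were called lower (Cd40, Nfkb1, Nfkb2, Rel and Relb; 8.98% of genes), with Cd40 at -0.40 (adjusted p = 0.000357). Within DZ-scored cells 7 were (13.0% of genes), with Tnfaip3 at -0.76 (adjusted p = 0.000193) and Nfkbia at -0.58 (adjusted p = 1.9e-06). The values of both inhibitors at 48 h were larger in DZ-scored than in LZ-scored cells, a difference between classes that was not tested. All classes came from cells that had not been thinned, and thinning changed the shares of LZ-scored cells, as given above. The part of UMIs per cell in these values was therefore not tested.

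At 72 h the same restriction gave Cd40 a larger difference. In G1 cells its lowest, median and highest levels were 97.9, 105 and 118 CPM in untreated and 67.7, 74.8 and 93.6 CPM in treated mice (TMM within the class), a log2 difference of -0.47 (SE 0.09, adjusted p = 0.000846). In LZ-scored cells the difference was -0.41 (SE 0.08, adjusted p = 0.000593), and in DZ-scored cells -0.02 (SE 0.10, adjusted p = 0.95). In G1 cells 3 genes were called lower (Cd40, Nfkbia and Nfkb1; 4.91% of genes), and in LZ-scored cells 5 (also Nfkb2 and Relb; 3.44% of genes). For Cd40 in G1 cells every treated mouse was below every untreated one by these values, whereas by total UMIs the highest treated mouse (99.3 CPM) was just above the lowest untreated one (98.9 CPM). The share of all genes separated in this way in G1 cells was not counted.

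Between treated mice at 48 h and 72 h, no member was called in G1 cells by edgeR (0 of 10, with 1.25% of genes called lower and 3.99% higher), with Cd40 at 0.04. At an unadjusted p under 0.05 there were 2, Icam1 at -0.24 and Tnfaip3 at 0.48, the latter opposite in sign to its value in all cells. In LZ-scored cells there were 0 at either threshold, where 1.97% of genes were called lower and 3.81% higher. In DZ-scored cells, in contrast, 8 of the 10 were called lower, where 21.2% of genes were lower and 18.9% higher. The median log2 fold change of the 10 was -0.29 there.

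**Figure D2:**
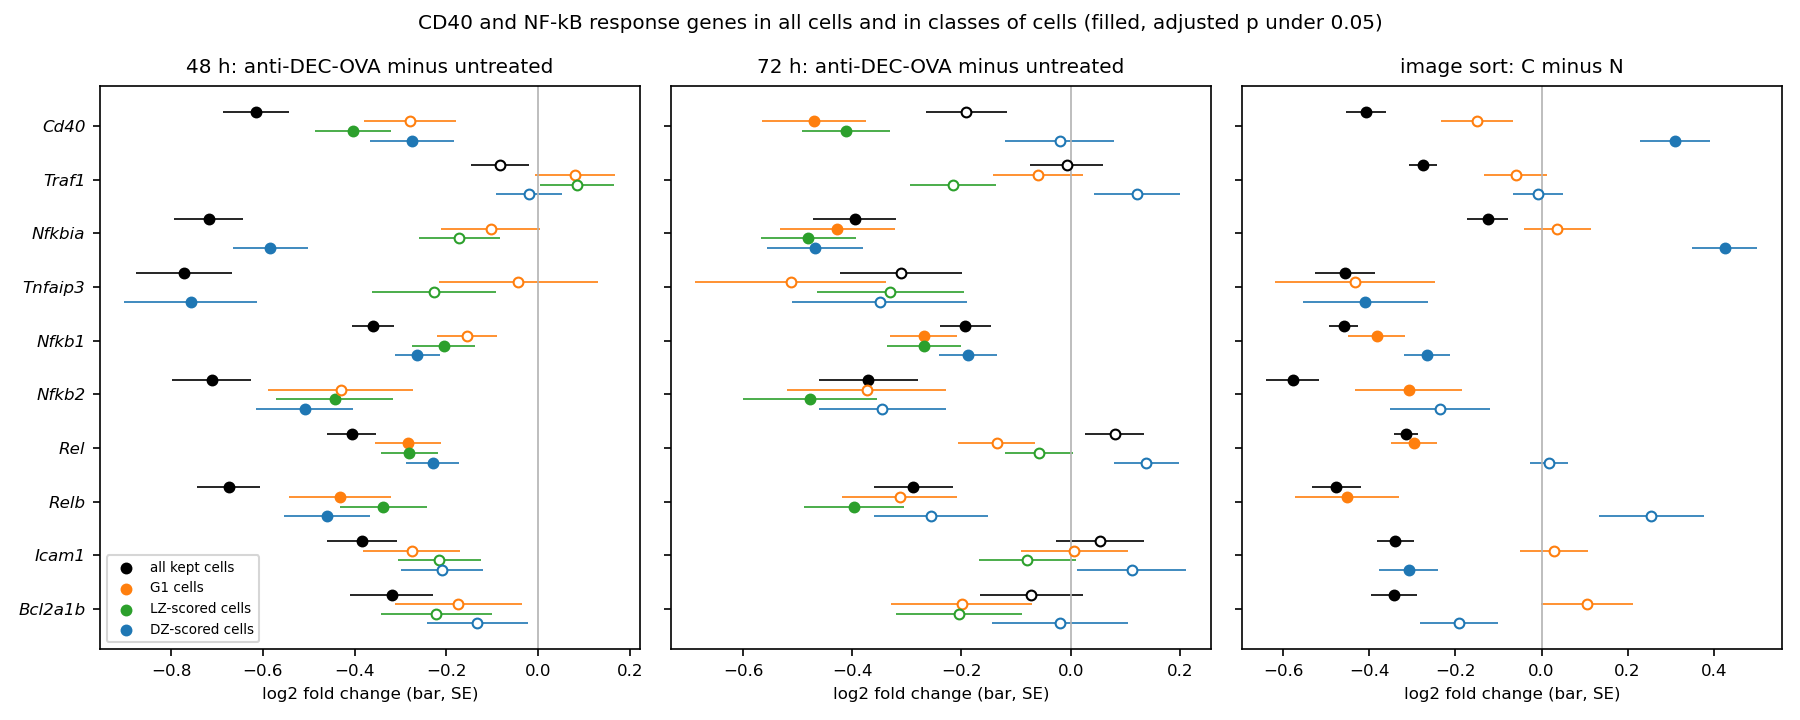
Log2 fold changes (x axis, points with SE bars) of the 10 genes (y axis) in all kept cells and in G1, LZ-scored and DZ-scored cells, for treated minus untreated mice at 48 h and at 72 h and for C minus N; filled points have an adjusted p under 0.05, and LZ-scored cells were not fitted in the image sort. In all cells at 48 h 9 points are filled and lie left of 0, and in the image sort Cd40 and Nfkbia lie left of 0 in all cells and right of 0 in DZ-scored cells (0.31 and 0.43, with TMM scaling).

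CPM gives a gene's share of all UMIs, and the levels per cell differed from it. Here UMIs per cell are the mean over the cells of a mouse, not the median over cells given above with the phases. At 48 h the median over mice of all UMIs per cell was 15385 in treated and 8348 in untreated mice, a ratio of 1.84. Cd40 had medians of 0.742 and 0.597 UMIs per cell, a ratio of 1.24, although its share of UMIs was lower. The ratios of the 10 genes ran from 1.01 for Tnfaip3 to 1.52 for Traf1, all below that of all UMIs. At 72 h all UMIs per cell had a ratio of 1.03, and Cd40 and Nfkbia of 0.803 and 0.729.

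In the image sort at 72 h after anti-DEC-OVA, all 10 genes were lower in C (CDK2-high) than in N (CDK2-low) cells of the same mice, where 38.6% of the 10120 genes tested were lower and 36.5% higher. Their median log2 difference was -0.38, against -0.02 over all genes. With total UMIs as the scale in place of TMM these medians were -0.57 and -0.22, and all 10 were lower where 57.5% of genes were lower and 23.8% higher. Cd40 had lowest, median and highest levels of 45.5, 52.8 and 58.5 CPM in C and 56.6, 67.1 and 86.8 CPM in N. Its ranges overlapped, but it was lower in C in 7 of 7 mice, by -0.41 (SE 0.05, adjusted p = 2.21e-08, edgeR with the mouse as a block).

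Nfkb2 had the largest difference, with 18.4, 22.6 and 23.8 CPM in C and 29.7, 31.5 and 39.5 CPM in N, and fell by 0.58 on the log2 scale (SE 0.06, adjusted p = 4.52e-09). Relb had 22.1, 27.1 and 29.5 CPM against 31.6, 37.8 and 45.5 CPM and fell by 0.48 (SE 0.06, adjusted p = 4.65e-08). Nfkb1 fell by 0.46 (SE 0.03, adjusted p = 3.76e-12) and Rel by 0.31 (SE 0.03, adjusted p = 1.65e-10). For these 4 subunits every C value was below every N value, as for 17.4% of all genes.

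Among the other genes Tnfaip3 fell by 0.46 (SE 0.07, adjusted p = 2.56e-06), Bcl2a1b by 0.34 (SE 0.05, adjusted p = 3.05e-06), Icam1 by 0.34 (SE 0.04, adjusted p = 1.37e-07) and Traf1 by 0.28 (SE 0.03, adjusted p = 2.82e-08), each in 7 of 7 mice. Nfkbia was the exception, lower in C in 4 of 7 mice. It had 89.7, 118 and 132 CPM in C and 85.5, 129 and 155 CPM in N, a difference of -0.13 (SE 0.05, adjusted p = 0.0207). Its call was lost without mouse M3 (-0.06, adjusted p = 0.165), without mouse M6 (-0.10, adjusted p = 0.0639), in DESeq2 (-0.12, adjusted p = 0.0536) and without pairing by mouse (-0.14, adjusted p = 0.237). In B1-8hi-paired cells alone the difference was -0.30, and over all alternatives the adjusted p ran from 1.62e-06, with total UMIs as the scale (-0.32), to 0.739 in G1 cells. Mouse M6 is the one with 43.2 CPM of T cell markers in N.

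**Figure D3:**
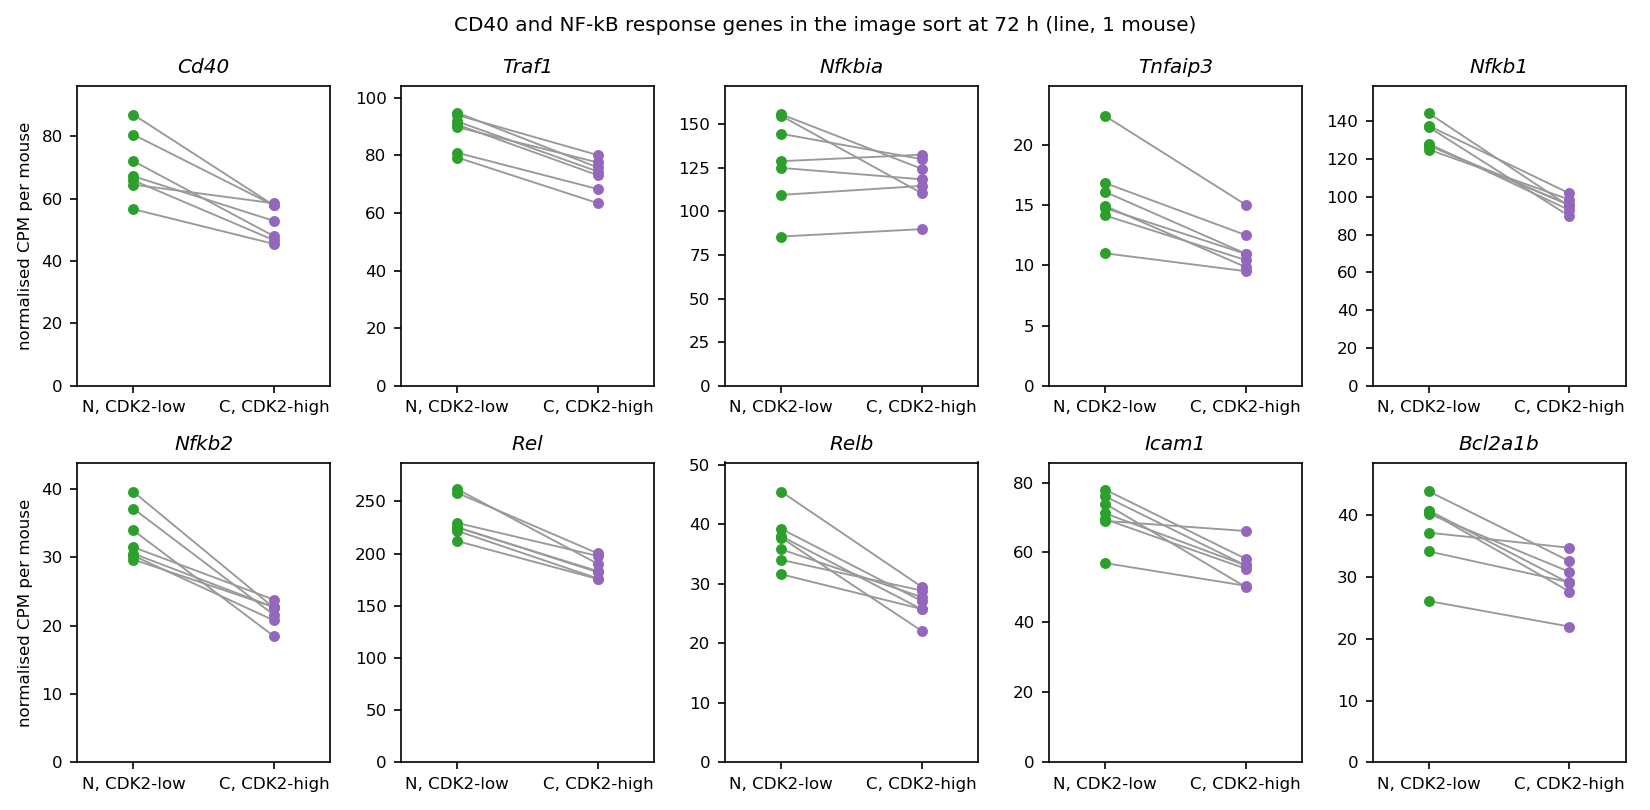
Normalised CPM (y axis) of the 10 genes in N (CDK2-low) and C (CDK2-high) cells (x axis), with a line for each of the 7 mice. All 7 lines go down from N to C for each gene other than Nfkbia, where 4 of 7 do.

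C and N differed in phase by the sort itself. The median share of cells in G1 was 9.71% in C and 78.8% in N, and that of LZ-scored cells 27.0% and 77.8%. After cells were thinned to 5260 UMIs, leaving out 930 C and 253 N cells, they were 8.56% and 76.0% in G1 and 26.2% and 74.5% by LZ score. Naive or memory B cell markers summed to medians of 45.3 CPM in C and 72.5 CPM in N. Since each population was 1 pool, the pool and the population cannot be told apart.

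Within G1 cells 4 of the 10 genes were called lower in C (Nfkb1, Nfkb2, Rel and Relb), where 20.0% of genes were, with Relb at -0.45 (adjusted p = 0.00156) and Cd40 at -0.15 (adjusted p = 0.15). Within DZ-scored cells 3 were lower in C (Tnfaip3, Nfkb1 and Icam1; 29.9% of genes). Cd40 and Nfkbia were higher in C there, where 27.8% of genes were higher. Cd40 had 36.4, 38.7 and 44.9 CPM in DZ-scored C and 28.5, 32.8 and 37.1 CPM in DZ-scored N cells (TMM within the class), with overlap, and was higher in C in 7 of 7 mice, with a log2 difference of 0.31 (SE 0.08, adjusted p = 0.00158). Nfkbia had 62.7, 69.9 and 78.4 CPM against 40.1, 51.8 and 62.3 CPM, higher in 7 of 7 mice, and a difference of 0.43 (SE 0.08, adjusted p = 1.84e-05). The size of these values depended on the scaling. With total UMIs as the scale Cd40 had 0.14 (adjusted p = 0.133), no longer past the threshold, and Nfkbia 0.26 (adjusted p = 0.00451), while 7 of the 10 genes were lower in C, where 49.5% of genes were lower and 17.8% higher. The median of all genes in DZ-scored cells moved from -0.03 to -0.20 between the scalings. S and LZ-scored cells of the sort were not fitted. In S cells Cd40 was lower in C in 7 of 7 mice (medians of 42.6 and 61.1 CPM in C and N) and Nfkbia in 6 of 7. In LZ-scored cells Nfkbia was higher in C in 7 of 7 mice (299 and 155 CPM) and Cd40 in 5 of 7. The Cd40 medians there were 87.3 CPM in C and 81.7 CPM in N with TMM within the class. With total UMIs as the scale they were 82.5 and 86.2 CPM, the other direction, and those of Nfkbia 283 and 160 CPM. The shares of all genes with such counts of mice in S and LZ-scored cells were not counted.

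Per cell, C had 0.787 times the UMIs of N by the medians, and the 10 genes had ratios from 0.454 for Nfkb2 to 0.648 for Nfkbia, all lower. Cd40 had 0.539 UMIs per cell in C and 0.966 in N. C and N were separate pools, so the depth of each pool enters these ratios and cannot be told apart from the population. The groups at 48 h, in contrast, were in the same pools.

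**Figure D4:**
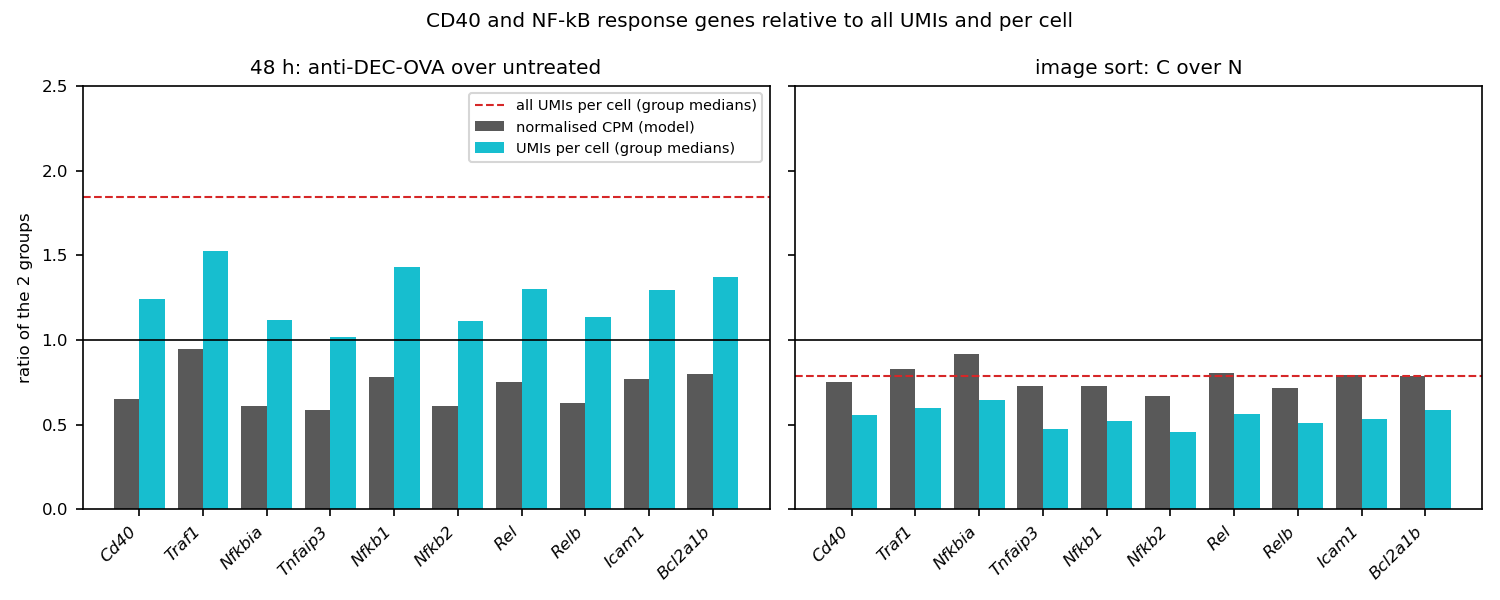
Ratio between groups (y axis) of the 10 genes (x axis) by the model's normalised CPM (grey bars) and by UMIs per cell (cyan bars, medians of mice), with a dashed line at the ratio of all UMIs per cell and a solid line at 1. At 48 h the grey bars lie below 1 and the cyan bars between 1 and the dashed line at 1.84, whereas in the image sort the bars of both kinds lie below 1. C and N were separate pools, whereas the groups at 48 h shared their pools.

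A list of 40 other genes of CD40 and NF-kB signalling, of which 36 passed the filter on counts, was counted in the same tests. At 48 h 24 of the 36 were lower and 2 higher, with a median of -0.27, where 21.1% of all genes were lower and 26.3% higher. Within G1 cells 2 of 35 were lower (4.78% of genes), within LZ-scored cells 9 of 35 (8.98%) and within DZ-scored cells 18 of 36 (13.0%), and edgeR called 0 higher in each (1, 0 and 2 at an unadjusted p under 0.05; 4.73%, 9.59% and 12.3% of genes). In the smaller experiment alone 13 were lower and 1 higher (10.1% and 10.7% of genes). Irf4, a transcription factor of B cell activation and plasma cell fate, fell by 0.97 (SE 0.19, adjusted p = 7.16e-05), Birc3, a ubiquitin ligase of TRAF complexes, by 0.76 (SE 0.08, adjusted p = 1.95e-09) and Bcl3, an NF-kB cofactor, by 0.72 (SE 0.13, adjusted p = 1.38e-05). Gadd45b, a stress-response gene, and Traf2, an adaptor, were higher by 0.26 (adjusted p = 0.00608) and 0.19 (adjusted p = 0.00989). Both lost the call with total UMIs as the scale, at 0.18 (adjusted p = 0.0585) and 0.12 (adjusted p = 0.119), where 26 of the list were lower (30.1% of genes). Birc3 did not overlap between the groups, with 122.8, 134.7 and 149 CPM in untreated and 70.5, 79.3 and 86.3 CPM in treated mice. Such a separation was found in 3.25% of all genes. Irf4 varied widely in untreated mice, from 6.94 to 38.2 CPM.

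At 72 h 5 of the 36 were lower and 4 higher, with a median of -0.04, where 3.88% of all genes were lower and 4.67% higher. Without a term for the experiment 1 was lower and 2 higher (1.07% and 1.06% of genes). In the smaller experiment alone edgeR called 0 (1 at an unadjusted p under 0.05), with 0.116% of genes lower and 0.0968% higher. Bcl3 fell by 0.52 (adjusted p = 0.0119), Pim1, a kinase gene, by 0.43 (adjusted p = 0.00226) and Birc3 by 0.38 (adjusted p = 0.00272). Tnf, which encodes the cytokine TNF, was higher by 0.83 (SE 0.19, adjusted p = 0.00268), Tnfrsf13b, a receptor for BAFF and APRIL, by 0.34 (adjusted p = 0.024) and Traf5, an adaptor, by 0.30 (adjusted p = 0.00254). Tnf had 10.3, 16.4 and 20.9 CPM in untreated and 15.8, 30.3 and 35.4 CPM in treated mice.

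Between treated mice at 48 h and 72 h, 23 of the list were lower and 1 higher (median -0.26), where 22.3% of all genes were lower and 26.8% higher. Within G1 cells 3 of 35 were lower and 2 higher (1.25% and 3.99% of genes). Within LZ-scored cells 4 of 35 were lower (1.97% of genes), and within DZ-scored cells 18 of 36 were lower and 1 higher (21.2% and 18.9%). The values that follow are again those of all kept cells. Tnf differed by -0.88 (adjusted p = 2.97e-05), Nfkbiz, an atypical inhibitor, by -0.77 (adjusted p = 5.7e-07) and Birc3 by -0.63 (adjusted p = 4.47e-08), whereas Sod2, a mitochondrial antioxidant enzyme, was higher by 0.22 (adjusted p = 0.00272), a call lost with total UMIs as the scale (0.12, adjusted p = 0.0779). The difference of the treatment effects called 14 lower (median -0.21), where 13.0% of all genes were lower. This count was 20 with total UMIs (20.4% of genes), 7 without a term for the experiment (4.29%), 5 in the smaller experiment alone (3.27%) and 1 of 35 in G1 cells (0.768%). It was led by Tnf (-1.19, adjusted p = 0.000494), Nfkbiz (-0.69, adjusted p = 0.00193) and Traf5 (-0.53, adjusted p = 4.67e-05). Without treatment 3 rose and 3 fell from day 7 to day 10 (median 0.05), where 1.79% of all genes were higher and 2.62% lower. In edgeR without a term for the experiment and in the smaller experiment alone 0 of the list were called (9 and 5 at an unadjusted p under 0.05), with 0.460% and 0.0290% of genes higher and 0.294% and 0.00% lower. The genes that rose were Bcl3 by 0.49 (adjusted p = 0.0134), Birc3 by 0.34 (adjusted p = 0.00494) and Birc2, another ligase of TRAF complexes, by 0.21 (adjusted p = 0.0229). Tnfrsf13b (-0.41, adjusted p = 0.00494), Gadd45b (-0.29, adjusted p = 0.013) and Traf5 (-0.25, adjusted p = 0.0131) were the 3 that fell.

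In C against N 28 of the 36 were lower and 4 higher, with a median of -0.34, where 38.6% of all genes were lower and 36.5% higher. By total UMIs 31 were lower and 1 higher, with a median of -0.54 (57.5% and 23.8% of genes), and within G1 cells 14 of 35 were lower and 1 higher (20.0% and 20.2%). Birc3 fell by 0.90 (SE 0.04, adjusted p = 5.57e-16), Tnf by 0.77 (SE 0.05, adjusted p = 2.7e-13) and Tnip2, which encodes an A20-binding protein, by 0.69 (SE 0.09, adjusted p = 2.07e-07). Birc3 had 66.0, 83.6 and 91.8 CPM in C and 118.9, 153.9 and 184 CPM in N, with no overlap, as for 17.4% of all genes. Cd80, a costimulatory ligand, was higher in C by 0.56 (SE 0.15, adjusted p = 0.00151), at 1.76 to 4.64 CPM in C and 1.91 to 3.07 CPM in N, and Traf2 and the kinase gene Tbk1 by 0.23 (adjusted p = 9.63e-05) and 0.20 (adjusted p = 0.000269). With total UMIs Cd80 was still called (0.36, adjusted p = 0.0281), whereas Traf2 (0.036, adjusted p = 0.48) and Tbk1 (0.0048, adjusted p = 0.924) were not.

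Across the 39 mice of the time course the genes most like Cd40 were Nfkb2 (Pearson r = 0.90), Il4i1 (0.89), Havcr1 (0.88), H2-Oa (0.86) and Nfkbia (0.86), by log2 CPM centred on each experiment. Relb ranked 6th of 10219 genes (r = 0.86), and Rel 980th (r = 0.53). The mice share groups, pools and depth, and with the group means taken out r was 0.64 for Nfkb2, 0.48 for Il4i1, 0.50 for Havcr1, 0.50 for H2-Oa and 0.45 for Nfkbia. Il4i1, an amino acid oxidase gene, followed the order of Cd40 by its medians, from 34.2 CPM in treated mice at 48 h to 114 CPM in untreated mice at 72 h. These correlations describe the mice and carry no test.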

How the data were processed

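GC B cells of 39 mice in the time course and of 7 mice in the CDK2 sort were measured by 10x 5′ single-cell sequencing. The authors deposited raw UMI counts for every gene and hashtag in each cell, made with CellRanger 8.0.1 (matrix headers and study methods) on the mm39 reference, whereas the submitters' processing notes list Cell Ranger 6.0.1 and Seurat 5.1.0, and they also deposited contig tables with UMI counts and an index of hashtag numbers and conditions per mouse. C and N in that index were read as cytoplasmic and nuclear reporter. A further experiment of the series was not analysed here.

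Hashtag cutoffs came from HTODemux (Seurat 5.3.0, quantile 0.99), and only cells positive for the full hashtag set of a single mouse, and for no other hashtag, were given to that mouse. Cells with hashtags of several mice were left out (507 to 2705 per pool), and doublets within a mouse were not searched for. A minimum of 200 genes and a mitochondrial share under 10% of UMIs were required, which removed 3114 assigned cells of the smaller time-course pool and 93 to 351 in the others. All GC B cells were used, not only B1-8hi cells. The index of the CDK2 sort listed 9 mice, of which 7 had cells. Mice with fewer than 10 cells of a class were left out.

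Sums of UMIs per mouse entered edgeR's quasi-likelihood test (edgeR 4.0.16, R 4.3.3) after filterByExpr and TMM scaling, with Benjamini-Hochberg adjustment over all genes tested at a threshold of 0.05, with a term for the experiment in a single fit of the time course and the mouse as a block in the CDK2 sort. Both sorted populations came from the same mice, named in the authors' index, and their deviations correlated by 0.13 to 0.47 over the 7 mice. CPM between groups are TMM-normalised within the set of cells compared. Phases came from CellCycleScoring (43 S and 54 G2/M genes) and zones from AddModuleScore with 10 LZ and 10 DZ genes, 6 of the latter mitotic. Classes in the tests used cells that had not been thinned, and thinning went to the 10th percentile of UMIs. The fit was tested on simulated data. Alternatives were DESeq2 1.42.0, no filter on counts or cells, B1-8hi-paired cells only, no term for the experiment, each experiment alone, only the groups compared, no block, cell classes, each CDK2 mouse left out and, chosen after seeing the data, mouse M06 of Day7 left out and library sizes taken as total UMIs without TMM. Promoters were read with Python 3.11.15 from the GRCm39 genome.

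The genes and lists were chosen with earlier results of these data known. All 10 genes are named, and of the pathway list up to 3 rises and 3 falls per comparison by size past the threshold. The 5 genes most like Cd40 had the highest Pearson r of log2(CPM + 1).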

Additional observations from a re-analysis of the deposited data

Results flagged for a closer look

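Of 70 groups of mice and genes, 3 held a mouse that stood apart by Dixon's test at its 95% critical value, where chance gives about 1 in 20 groups. In Day7 mouse M06 had 33.0 CPM of Tnfaip3 (the others 13.9 to 23.1) and 44.9 CPM of Bcl2a1b (the others 23.6 to 33.4). This mouse also had the fewest UMIs of the time course (1984426) and the highest share of G1 cells in its group (68.9%), and their part was not tested. In N mouse M10 had 57.0 CPM of Icam1, below the others (69.0 to 78.0 CPM).

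For 8 genes the treatment effect at 48 h differed from that at 72 h in edgeR's test of the difference (48 h minus 72 h, log2). The values were -0.42 for Cd40, -0.32 for Nfkbia, -0.46 for Tnfaip3, -0.17 for Nfkb1, -0.34 for Nfkb2, -0.49 for Rel, -0.39 for Relb and -0.44 for Icam1. In G1 cells and in LZ-scored cells none of the 10 genes passed this test (0 of 10 in each, 1 and 3 at an unadjusted p under 0.05), where 0.768% and 1.86% of genes were called lower.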

How the results depend on the processing

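Counts of the 10 genes called kept within 1.5 times of the values above under DESeq2, without a filter on counts or cells, with B1-8hi-paired cells only, with only the groups compared, with total UMIs as the scale (chosen after seeing the data), and without mouse M06 of Day7, which kept the direction and side of the threshold of all 50 values. Without a term for the experiment the counts were 1 lower at 72 h (1.07% of genes), 1 for day 10 against day 7 (0 higher and 1 lower, with 0.460% and 0.294% of genes) and 3 lower for the difference of the effects (4.29%). In the larger experiment alone the last was 4. In the smaller alone it was 3, with 1 at 72 h and 0 for day 10 against day 7. Fewer mice were used there, and the cause was not tested. Without the replicate block by mouse 9 of 10 were lower in C, Nfkbia at -0.14 being lost, and the pairing changed no other call.

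In G1 cells the counts were 2 lower at 48 h, 0 for treated mice at 48 h against 72 h, 2 for day 10 against day 7 (1.32% of genes higher, 0.892% lower), 0 for the difference of the effects (0.768% of genes lower) and 4 lower in C, or 6 in C with total UMIs as the scale (28.8% of genes). In LZ-scored cells they were 5, 0, 3 (1.04% of genes higher, 1.22% lower) and 0 (1.86%) for the first 4 of these. In DZ-scored cells they were 2 at 72 h (2.89% of genes), 2 for day 10 against day 7 (1.36% higher, 0.973% lower), 1 for the difference of the effects (7.24%) and 3 lower in C. The cause of the lost calls was not tested. In the classes of the time course total UMIs moved the median of all genes by at most 0.060, and every call on the 10 genes held.

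Of the values called above, signs reversed only in classes of cells. C minus N was 0.31 for Cd40, 0.43 for Nfkbia, 0.017 for Rel and 0.26 for Relb in DZ-scored cells, and 0.037 for Nfkbia, 0.029 for Icam1 and 0.11 for Bcl2a1b in G1 cells, all with TMM scaling within the class. With total UMIs as the scale the signs of Rel in DZ-scored cells (-0.15) and of Nfkbia (-0.057) and Icam1 (-0.066) in G1 cells did not reverse, and the others were 0.14 for Cd40, 0.26 for Nfkbia and 0.085 for Relb in DZ-scored and 0.010 for Bcl2a1b in G1 cells. LZ-scored and G2M cells of the sort were not fitted. By CPM in LZ-scored cells, Nfkbia (medians of 299 in C and 155 in N) and Bcl2a1b were higher in C in 7 of 7 mice. Icam1 was higher there in 6 of 7, and Nfkb1 lower in 7 of 7. These counts used TMM within the class. With total UMIs as the scale Icam1 had medians of 83.4 and 81.3 CPM in C and N, but means of 78.5 and 80.2 CPM. The shares of all genes with such counts were not counted. In G2M cells, a median of 3.45% of N, Traf1 and Rel were higher in C in 6 of 6 mice and Icam1 lower in 6 of 6. Treated 48 h minus 72 h was 0.045 for Cd40, 0.063 for Nfkbia and 0.48 for Tnfaip3 in G1 cells, and 0.074 for Traf1 and 0.091 for Tnfaip3 in LZ-scored cells. The difference of the effects was 0.19 for Cd40, 0.32 for Nfkbia, 0.47 for Tnfaip3 and 0.11 for Nfkb1 in G1 cells, and 0.0092 for Cd40, 0.31 for Nfkbia, 0.10 for Tnfaip3, 0.063 for Nfkb1, 0.034 for Nfkb2 and 0.059 for Relb in LZ-scored cells. Depth limits precision most for Tnfaip3, with 43 to 115 UMIs per treated mouse at 72 h over all cells, and fewer in each class.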
